A study of Homo sapiens with 6 samples.

Results

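The genes described here encode, or share a name with, the nuclear-encoded parts of the respiratory complexes I and IV and of ATP synthase, read on Agilent Whole Human Genome arrays in human ovarian cancer cell lines. Members were all non-control probes whose gene name begins with NDUFA, NDUFB, NDUFC, NDUFS, NDUFV, COX4, COX5, COX6, COX7, COX8 or ATP5, which gave 123 of 41000 probes and 83 genes of 29123 gene names on the array. The brightest probe stood for each gene. By name, 50 genes fell to complex I, 16 to complex IV and 17 to ATP synthase. The prefixes also caught genes that are no subunits: 7 assembly factors of complex I (NDUFAF1 to NDUFAF7), 3 antisense RNAs, the pseudogene NDUFAF4P1, the paralog NDUFA4L2, the supercomplex factor COX7A2L, and the ATP synthase relatives ATP5S and ATP5SL. NDUFA4 carries a complex I name and is now counted as a subunit of complex IV, and it was kept with complex I here because the array names it so.

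Complex I (NADH:ubiquinone oxidoreductase) takes electrons from NADH through a matrix arm and pumps protons in its membrane arm. Complex IV (cytochrome c oxidase) passes electrons from cytochrome c to oxygen. ATP synthase uses the proton gradient that the chain builds, with a catalytic F1 head on a membrane-bound Fo ring. Most of their subunits are encoded in the nucleus, and several complex IV subunits exist as a ubiquitous form and a form found mainly in muscle, lung or testis.

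The study altered Hic-5 (TGFB1I1), a focal adhesion scaffold protein, in both directions and asked which genes follow. SKOV3, an ovarian adenocarcinoma line of mesenchymal shape, had been infected with lentivirus carrying Hic-5 shRNA in pLKO.1-puro, which gave the puromycin-selected clones sh-S1 and sh-S2, and its Ctrl clone carried the same vector with a scramble sequence. A2780s, another ovarian adenocarcinoma line, had been transfected with pCMV6 holding Hic-5 (the single clone pCMV-Hic-5) or with the empty vector (Ctrl), and was selected with neomycin. Each modified clone shared 2 arrays with the Ctrl of its line, with Cy3 and Cy5 exchanged between them, so the 6 arrays hold 2 replicates in SKOV3, the clones, and 1 in A2780s. Each RNA came from a stable clone, and clonal differences cannot be told apart from the effect of Hic-5. The SKOV3 arrays lay on 1 slide and the A2780s arrays on another, which leaves line and slide inseparable. With bulk RNA, fewer cells of a kind and less RNA per cell cannot be told apart.

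A check of the labels came out differently in the 2 lines. TGFB1I1 had log2 ratios over Ctrl of 4.05 and 2.60 on the arrays of pCMV-Hic-5. In SKOV3 its brightest probe was not lower in the RNA of either clone labelled as a knockdown, at -0.16, 0.12, -0.11 and 0.28 on the 4 arrays (mean 0.03, adjusted p = 0.86 in limma), so these clones are referred to by their labels only. The paper reports that it chose the clones by reduced Hic-5 mRNA and protein, read by PCR and Western blot. Why the array differs from those assays was not tested. On the SKOV3 arrays Cy5 was dim, with a median spot intensity over background of 9.52 to 25.5 against 373 to 530 in Cy3, whereas the A2780s arrays had 441 to 568 in Cy5 and 325 to 369 in Cy3. Ratios over all probes correlated at r = 0.61 between the dye-swapped arrays of either SKOV3 clone and at 0.89 and 0.90 between the clones in the same dye orientation. Of 7 epithelial and ovarian markers tested in SKOV3, 4 fell in both clones (log2 ratios of -3.58 for PAX8, -3.52 for KRT18, -2.55 for KRT19 and -2.14 for KRT8). Of 5 tested markers of leukocytes (CD3E, CD14) and fibroblasts (THY1, COL1A2, DCN), THY1 rose (log2 ratio 1.45), and the endothelial markers PECAM1, CDH5 and VWF did not pass the filter. The part of these marker differences, and of the dim Cy5 channel, in the results below was not tested.

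In SKOV3, 73 of the 83 genes could be tested. In these, 6 genes rose and 1 fell in sh-S1 and sh-S2 against Ctrl at a limma adjusted p of at most 0.05 and at least 2-fold. Complex I supplied 5 of the genes that rose, among them NDUFB8, NDUFA4, NDUFA5 and NDUFV3, and complex IV supplied its muscle isoform COX6A2, which rose, and COX7B2, which fell. No gene of ATP synthase was called, although ATP5A1, ATP5G3 and ATP5J2 were called higher when only clone-in-Cy5 arrays were read, and ATP5J2 when sh-S2 was left out. The members called higher were 8.22% of those tested and the members called lower 1.37%, where over all 24955 probes tested 2.97% were higher and 4.16% lower. These shares are of unlike probes, since members are the brightest probe per gene. Their median Cy5 intensity over background on the SKOV3 arrays was 488 to 1032, against 9.52 to 25.5 over all non-control spots. The part of intensity and probe choice in the shares was not tested. By complex, 10.9% of 46 complex I genes and 8.33% of 12 complex IV genes were called higher, and 0 of 15 ATP synthase genes. These shares follow the array names and depend on where NDUFA4 is put. With subunits only and NDUFA4 moved to complex IV, 4 of 36 were called higher in complex I and 2 of 12 in complex IV. Of the other 10 genes, NDUFAF4P1, NDUFV2-AS1, NDUFA4L2 and the lung isoform COX4I2 were too dim for the filter, and 6 bright subunits lost spots to outlier flags.

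**Figure D1:**
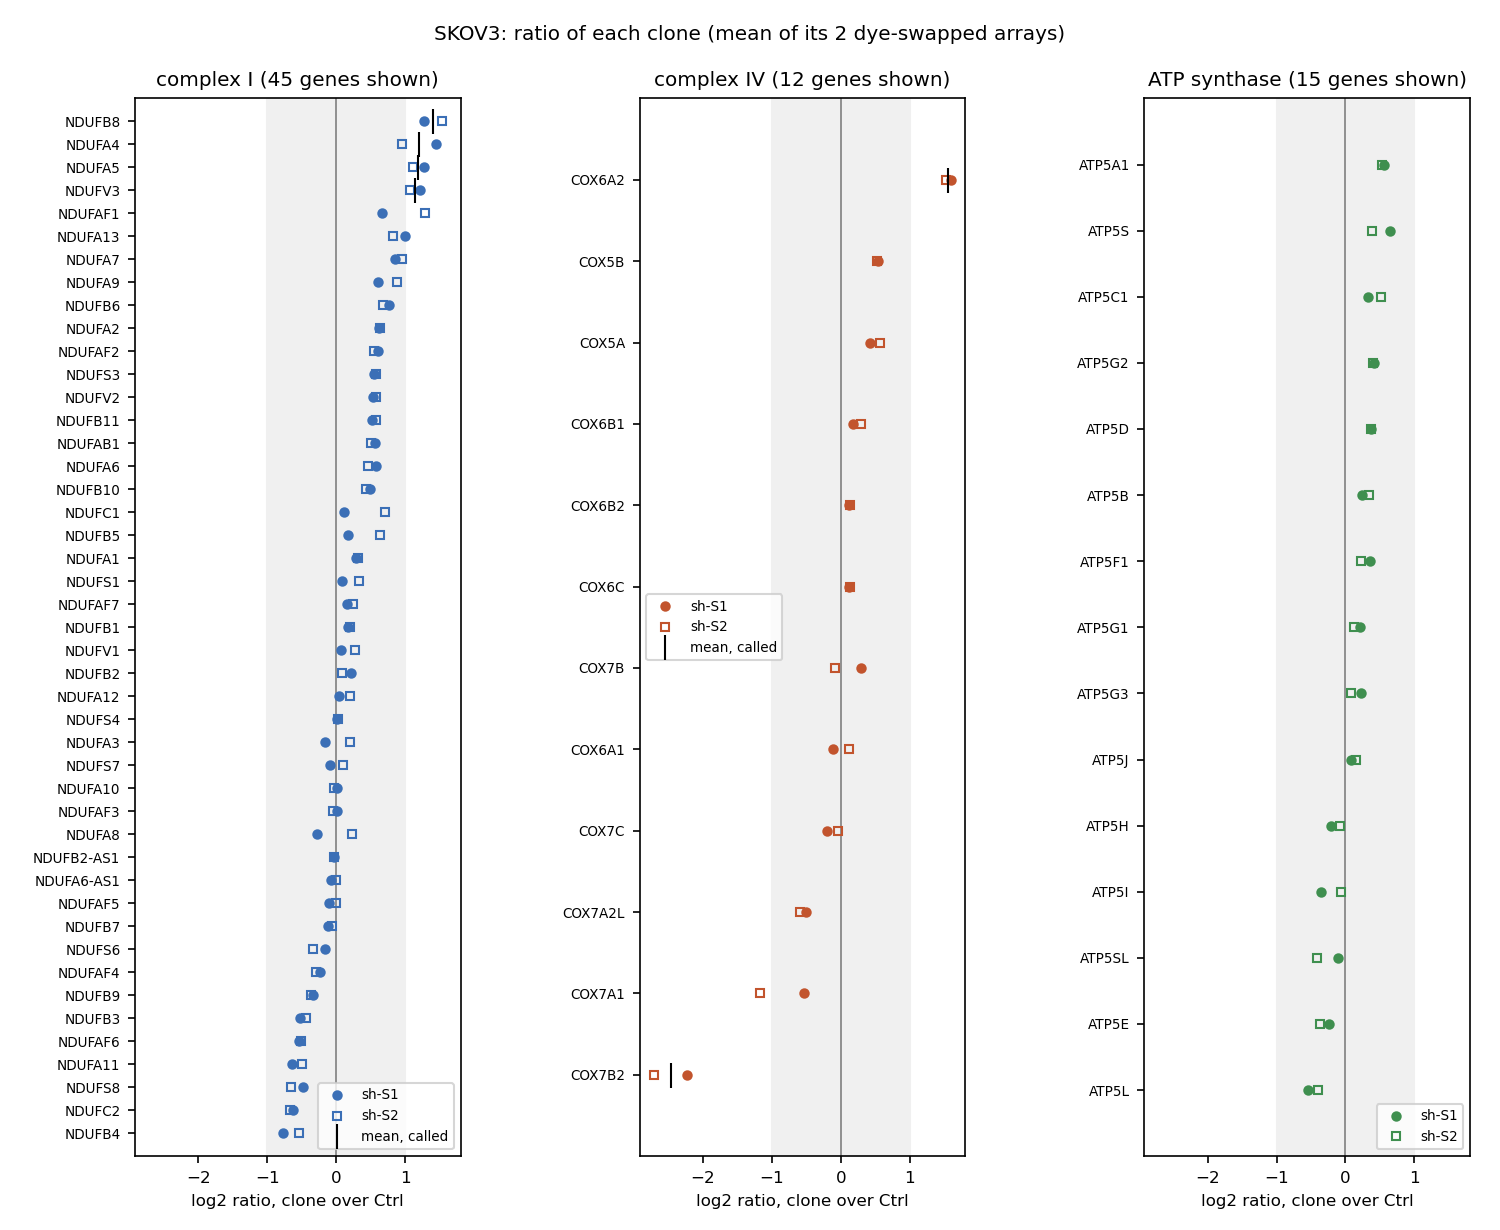
Log2 ratio of the tested genes described in SKOV3, clone over Ctrl (x axis), by complex; filled circles are sh-S1 and open squares sh-S2, each the mean of 2 dye-swapped arrays, the grey band is less than 2-fold, and black ticks mark the mean of called genes. The means over both clones of the genes drawn reach from -0.65 to 1.40 in complex I and from -2.47 to 1.56 in complex IV, and those of ATP synthase stay between -0.47 and 0.54.

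The widest departures in complex IV were in tissue isoforms, and their start regions are printed beside those of their ubiquitous partners. The sequences are RefSeq promoters of GRCh38.p14, 250 bases before to 50 bases after the gene start, written 5′ to 3′ on the strand of the gene. Capitals mark the letters GCATGCGC or GCGCATGC, a core of the site of NRF1, a transcription factor known for respiratory chain genes. COX6A1 lies on chr12:120437863-120438162 (plus strand), COX6A2 on chr16:31428311-31428610 (minus), COX7B on chrX:77899218-77899517 (plus) and COX7B2 on chr4:46909196-46909495 (minus).
COX6A1: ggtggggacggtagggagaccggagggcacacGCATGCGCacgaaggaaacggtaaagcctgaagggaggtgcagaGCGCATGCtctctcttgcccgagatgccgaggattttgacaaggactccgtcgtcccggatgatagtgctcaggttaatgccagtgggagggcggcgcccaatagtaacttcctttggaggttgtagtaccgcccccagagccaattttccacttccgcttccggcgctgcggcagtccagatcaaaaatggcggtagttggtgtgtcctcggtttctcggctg
COX6A2: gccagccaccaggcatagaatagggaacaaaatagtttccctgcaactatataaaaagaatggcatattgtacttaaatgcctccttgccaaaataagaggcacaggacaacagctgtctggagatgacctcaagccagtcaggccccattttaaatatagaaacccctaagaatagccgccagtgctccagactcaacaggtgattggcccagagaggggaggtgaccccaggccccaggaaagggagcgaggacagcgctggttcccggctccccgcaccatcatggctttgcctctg
COX7B: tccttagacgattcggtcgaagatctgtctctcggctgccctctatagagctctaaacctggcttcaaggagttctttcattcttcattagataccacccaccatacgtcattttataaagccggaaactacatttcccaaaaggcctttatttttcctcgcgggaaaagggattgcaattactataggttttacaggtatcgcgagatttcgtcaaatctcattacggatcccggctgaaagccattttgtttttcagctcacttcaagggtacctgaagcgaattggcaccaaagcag
COX7B2: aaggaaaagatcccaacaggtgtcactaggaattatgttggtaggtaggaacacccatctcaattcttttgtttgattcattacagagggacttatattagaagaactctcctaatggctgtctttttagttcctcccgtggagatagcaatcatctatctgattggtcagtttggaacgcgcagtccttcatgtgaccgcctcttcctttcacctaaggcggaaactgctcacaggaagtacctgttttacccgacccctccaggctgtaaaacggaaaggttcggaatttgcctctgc
COX6A1 holds the core 2 times and the other three promoters hold it 0 times. RefSeq promoters were found for 68 of the 83 genes. The core was in 14 of these 68 (20.6%), in 8 of 43 for complex I, 2 of 13 for complex IV and 4 of 12 for ATP synthase, against 3.27% of all 27305 promoters. The YY1 core AAGATGGC (GCCATCTT on the other strand) was in 14.7% of the members and 3.03% of all promoters, and the ETS core CCGGAAGT (ACTTCCGG) in 7.35% and 4.44%. No one of these motifs holds another. The windows of NDUFA6 and NDUFA6-AS1 overlap on opposite strands, and each is counted as a promoter with 1 NRF1 core and 1 YY1 core. A site in their shared stretch is counted for both. Of the 7 genes called in SKOV3, 6 had a promoter, and none of the 6 held any of the 3 motifs. A match is a match of letters only, and no match says no more than that these letters are absent from the window.

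COX7B2, an isoform of subunit 7B known from testis, fell most of all members. Its log2 ratio over Ctrl was -1.76 and -2.71 on the arrays of sh-S1 and -1.95 and -3.45 on those of sh-S2. All 4 values lie below -1, with the larger falls where the clone was in Cy3. The mean was -2.47 (moderated SE 0.13, n = 2 clones, SD between the clones 0.33), a fall of 5.53-fold, with a limma adjusted p of 3.56e-05. It was -3.52 with the processed signals of Feature Extraction. Its channel levels on the log2 scale were 11.57, 10.68, 11.41 and 11.30 in the Ctrl, 9.81 and 7.97 in sh-S1, and 9.46 and 7.85 in sh-S2. Every SKOV3 channel was well above background. In A2780s neither RNA rose well above background for this probe, on both arrays, with levels of 6.14 to 6.42. The probe lies on chr4:46736924-46736983 of hg19, on the minus strand. The ubiquitous COX7B had a mean ratio of 0.10 (adjusted p = 0.59 in limma), and its other probe gave -0.16.

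COX6A2, the isoform of subunit 6A known from heart and skeletal muscle, moved the other way. Its log2 ratios were 2.25 and 0.93 on the arrays of sh-S1 and 1.84 and 1.21 on those of sh-S2. The larger values stand where the clone was in Cy5. The mean was 1.56 (moderated SE 0.093, n = 2 clones, SD between the clones 0.046), or 2.94-fold, with a limma adjusted p of 6.07e-05. Levels in the Ctrl ran from 11.01 to 11.89 and in the clones from 12.22 to 13.66, an order that follows from the call and adds nothing to it. The probe lies on chr16:31439050-31439109 of hg19, on the minus strand. The ubiquitous COX6A1 had ratios of 0.74, -0.97, 0.65 and -0.41, a sign that followed the dye, and a mean of 0.00 (adjusted p = 0.98 in limma).

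The other isoforms of complex IV moved less. COX7A1, the muscle isoform of 7A, had a mean ratio of -0.85 (adjusted p = 0.0066 in limma), short of 2-fold, from -0.25, -0.82, -0.59 and -1.75 on the 4 arrays. Its clone channel was well above background on 2 of the 4 arrays and its Ctrl on all 4, so it passed the filter through the Ctrl, where it is higher, and the ratio is uncertain. It was called lower, with COX7B2, when sh-S1 was left out, with the processed signals, under median centring and when only clone-in-Cy3 arrays were read. Its ubiquitous partner COX7A2 kept only the arrays of sh-S1, at 0.01 and -0.19. COX7A2L, which joins complexes III and IV in supercomplexes, had a mean of -0.54 (adjusted p = 0.0054), and its other probe gave -0.06. COX6B2, the testis isoform of 6B, and COX6B1 had means of 0.12 and 0.24, and the adjusted p was 0.39 and 0.11. COX5B and COX5A, ubiquitous nuclear-encoded subunits, had means of 0.53 and 0.50 with adjusted p of 0.0058 and 0.0087, both short of 2-fold. COX4I1, the ubiquitous form of subunit 4, kept only the arrays of sh-S1 on its brightest probe, at 0.98 and -1.02, and its other probes gave 0.33 and -0.34. COX7C and COX6C had means of -0.13 and 0.12, and neither passed the adjusted p.

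In complex I, NDUFB8, an accessory subunit of the membrane arm, had ratios of 1.29, 1.24, 1.66 and 1.40, a mean of 1.40 (moderated SE 0.11, n = 2 clones), 2.64-fold, and a limma adjusted p of 0.00016. Its Ctrl levels were 12.44 to 12.54 and its clone levels 13.69 to 14.19, and its probe lies on chr10:102283520-102283579 of hg19.

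NDUFA4, the subunit reassigned to complex IV, rose with a mean of 1.20 (moderated SE 0.13, n = 2 clones, SD between the clones 0.35) and a limma adjusted p of 0.00086. Its ratios were 1.54 and 1.35 in sh-S1 and 1.12 and 0.78 in sh-S2. Without sh-S1 the mean was 0.95, short of 2-fold. Its second probe gave a mean of 1.37, from 0.44, 2.75, -0.24 and 2.51, so that probe split by dye. The paralog NDUFA4L2 was too dim to test.

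NDUFA5 and NDUFV3 rose on their brightest probe, and their other probes read lower. NDUFA5, an accessory subunit of the matrix arm, had ratios of 1.76, 0.78, 1.52 and 0.71, a mean of 1.19 (moderated SE 0.097, n = 2 clones) and a limma adjusted p of 0.00021. NDUFV3, an accessory subunit at the site where NADH is oxidized, had ratios of 1.08, 1.36, 0.76 and 1.39, a mean of 1.15 (moderated SE 0.096, n = 2 clones) and a limma adjusted p of 0.00025. Averaged over all probes of each gene the means were 0.79 and 0.62, and under median centring 1.00 and 0.96, all just or well short of 2-fold. On a single dye orientation NDUFV3 was 0.92 with the clone in Cy5, and NDUFA5 was 0.74 with the clone in Cy3.

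Since the call of NDUFV3 depends on which of 4 probes is read, 30 bases of each probe are shown with the hg19 position of the whole probe, 5′ to 3′ on the plus strand. The probes at chr21:44328997-44329056 and chr21:44329034-44329093 overlap by 23 bases, in capitals, and the others lie at chr21:44323526-44323585 and chr21:44331814-44331873.
NDUFV3 at 44328997, log2 ratio 0.95: cagcatcATGACTACAGCACGTACACCTTC
NDUFV3 at 44329034, log2 ratio 1.15: ATGACTACAGCACGTACACCTTCttagacc
NDUFV3 at 44323526, log2 ratio 0.30: agggctctgattcagaagctcgtcaggtgg
NDUFV3 at 44331814, log2 ratio 0.09: attaacatcttacaggattccccagtggtg
The overlapping probes gave the higher ratios, of which 1 reached 2-fold, and the probes on either side of them stood at 0.30 and 0.09. The latter were also the dimmer probes, with mean log2 levels of 8.74 and 8.58 against 12.50 and 12.51 for the overlapping probes, and the offset of 50 limits the folds of dim probes. The 3 probes of NDUFA5 lie on the minus strand of chromosome 7, and the first 30 bases of each follow.
NDUFA5 at 123181169 to 123181228, log2 ratio 1.19: taaaagtggagtcactaaatagtttgcagt
NDUFA5 at 123185703 to 123190555, log2 ratio 0.95: ttacaaatgagaagctggctatggttaaag
NDUFA5 at 123197087 to 123197146, log2 ratio 0.22: cttgccttaccgtttctgcttaggtgcgtt
The second of these spans more than its 60 bases and so joins exons, and it too was short of 2-fold. In the order printed, their mean log2 levels were 11.32, 9.53 and 8.14, so the lowest ratio was again on the dimmest probe. The part of the level in these differences was not tested. Ratios of different probes share the RNAs and arrays and are no replicates. Of 31 genes with several measured probes, 9 had probes of opposite sign, among them COX4I1, COX7B, ATP5L, ATP5F1, ATP5SL, NDUFA10 and NDUFS7. Probes below the filter are in this count, such as the ATP5F1 probe at -0.08. Some gaps were small, as between 0.00 and -0.13 in NDUFS7. Only in NDUFV3 did the probes differ by more than 1 on the log2 scale. In COX4I1, COX7B and ATP5F1 the probe below 0 was annotated to an Ensembl transcript and the brightest probe to a RefSeq one. The same held for the NDUFV3 probe at 0.09 and the NDUFA5 probe at 0.22. Whether such probes read different transcripts was not tested.

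**Figure D2:**
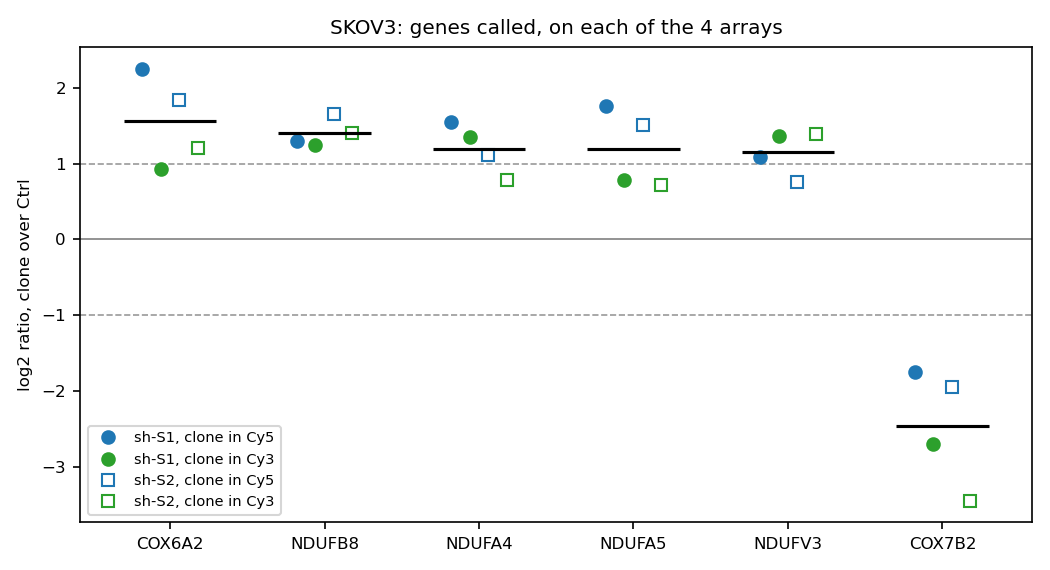
Log2 ratio (y axis) of genes called in SKOV3 on each array, with circles for sh-S1, squares for sh-S2, blue for the clone in Cy5 and green for the clone in Cy3; black lines are means and dashed lines mark 2-fold. The genes drawn that were called higher lie above 0 on all 4 arrays and COX7B2 below 0 on all 4, between -1.76 and -3.45.

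With no fold limit, 27 members were higher and 11 lower at a limma adjusted p of at most 0.05, of the 73 tested. These shares were 37.0% and 15.1%, against 15.6% and 16.2% of all probes, again probes of unlike intensity and choice. In complex I, 19 were higher and 7 lower, the 5 past 2-fold included, and its median ratio was -0.03 over the clone-in-Cy5 arrays and 0.46 over the clone-in-Cy3 arrays. In complex IV 3 were higher and 3 lower, and in ATP synthase 5 and 1. The assembly factor NDUFAF1, which helps to build the membrane arm, stood just outside the fold limit at 0.98 (adjusted p = 0.0035 in limma), and it passed with the processed signals, without sh-S1 and when only clone-in-Cy3 arrays were read. NDUFA13, NDUFA7 and NDUFA9, all accessory subunits, had means of 0.92, 0.90 and 0.75. NDUFA9 read -0.15 and 0.23 with the clone in Cy5 and 1.37 and 1.54 with the clone in Cy3. At the low end, the membrane arm subunits NDUFB4 and NDUFC2 had -0.65 and -0.64, and NDUFS8, a core subunit that carries iron-sulfur clusters, had -0.57, with adjusted p of 0.0037, 0.0026 and 0.0054. Of other core subunits, NDUFS3 and NDUFV2 had means of 0.56 and 0.55, NDUFS1 and NDUFV1 0.20 and 0.18, and NDUFS7 0.00. NDUFS3 read 0.50 to 0.60 on every array. In NDUFV2 the sign followed the dye, at -0.42 and -0.14 with the clone in Cy5 and 1.48 and 1.29 in Cy3. The same held for NDUFS1, at -0.86 and -0.63 in Cy5 and 1.03 and 1.28 in Cy3. The 7 assembly factors had a median of -0.01 and ran from -0.52 to 0.98. The lowest, NDUFAF6, was well above background in the clone channel on 2 of 4 arrays and in the Ctrl on all 4, and so passed the filter through the Ctrl.

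ATP synthase had the narrowest range. In its F1 head, the subunits alpha (ATP5A1), gamma (ATP5C1) and delta (ATP5D) had means of 0.54, 0.42 and 0.37 and passed the adjusted p (0.0051, 0.019 and 0.023 in limma), with ATP5A1 at 1.15, -0.03, 0.96 and 0.09 on the 4 arrays. The beta subunit ATP5B had 0.29 and epsilon ATP5E -0.30, and neither passed. The genes ATP5G1, ATP5G2 and ATP5G3 encode the same mature c subunit of the Fo ring, and had means of 0.17, 0.40 and 0.15. ATP5G3 read 1.18 and 1.00 with the clone in Cy5 and -0.72 and -0.84 with the clone in Cy3. ATP5L, the g subunit, was lowest at -0.47 (adjusted p = 0.011), and its other probe gave 0.04. Of the relatives, ATP5S had 0.51 (adjusted p = 0.010) and ATP5SL -0.26.

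The 6 subunits with spots flagged as outliers have no test value, since arrays of a clone were missing. NDUFS5, COX4I1 and COX7A2 lacked both arrays of sh-S2. COX8A and ATP5O lacked the sh-S1 array with the clone in Cy3, and ATP5J2 the sh-S2 array with the clone in Cy3. ATP5J2, the f subunit of the Fo part, read 1.84, 0.24 and 1.59 on the arrays left, and its other probe had a mean of 0.73 (adjusted p = 0.0032). With the flagged spots kept, an alternative chosen after the data were seen, the means were 0.97 for ATP5J2, 0.49 for NDUFS5, 0.22 for ATP5O, 0.15 for COX4I1, 0.03 for COX8A and -0.07 for COX7A2, and none reached 2-fold.

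The median log2 ratio over Ctrl in SKOV3 was 0.19 for complex I, 0.11 for complex IV and 0.17 for ATP synthase, against 0.00 over all probes tested. Per clone, complex I had 0.14 in sh-S1 and 0.26 in sh-S2, complex IV 0.12 and 0.12, and ATP synthase 0.23 and 0.15. In complexes I and IV the medians differed more between dye orientations than between clones. For complex I they were -0.10 and 0.11 with the clone in Cy5 and 0.45 and 0.50 with the clone in Cy3, and for complex IV 0.21 and 0.11 in Cy5 and 0.00 and -0.07 in Cy3. For ATP synthase they were 0.07 and 0.09 in Cy5 and 0.31 and 0.11 in Cy3. Among the 73 genes, 25 were higher on all 4 arrays and 11 lower on all 4, where 18.5% of all probes were higher and 19.5% lower on all 4. A further 19 changed sign with the dye in both clones, a count for which no share over all probes was taken. Under median centring the medians were 0.02, -0.08 and 0.07. The gaps between the 3 complexes were smaller than the gap of complex I or IV between dye orientations, and no order of the complexes is drawn from them.

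**Figure D3:**
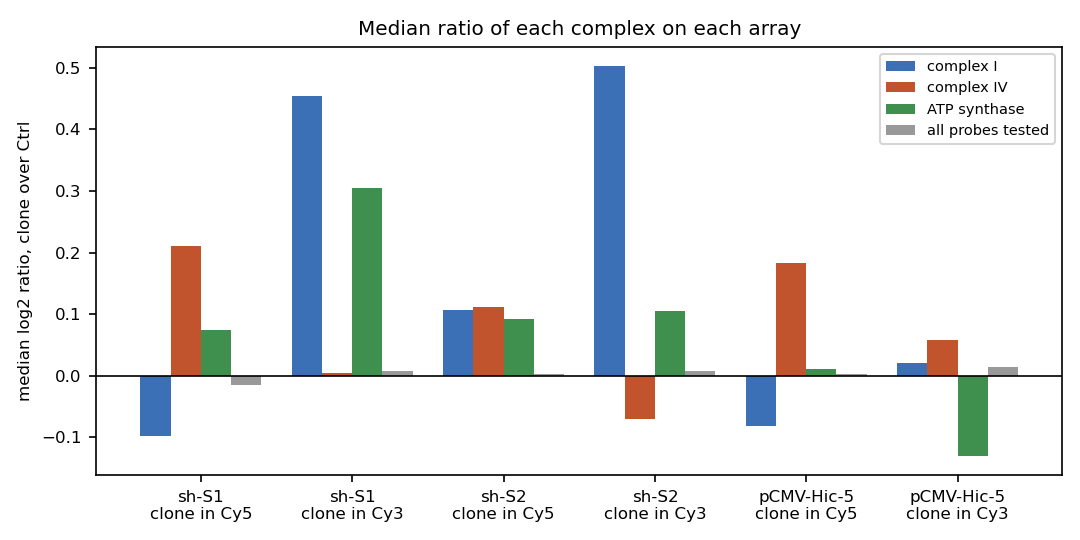
Median log2 ratio, clone over Ctrl (y axis), of complex I, complex IV, ATP synthase and all probes tested, on each of the 6 arrays (x axis). In SKOV3 complex I stands at 0.45 and 0.50 with the clone in Cy3 and at -0.10 and 0.11 with the clone in Cy5, while all probes stay near 0.

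In A2780s most of these genes stood near the Ctrl in the RNA of pCMV-Hic-5. Of 83 genes, 78 passed the filter. On the brightest probe of each, 2 reached 1.5-fold with both arrays in the same direction, NDUFS8 and NDUFB11, both higher and both of complex I. That is 2.56% of the members, beside 3.26% of all 30529 probes called higher, and no member was called lower, beside 1.32%. With 1 clone there is no test in this line. NDUFS8 read 1.01 and 0.50 (mean 0.75, 1.68-fold), and NDUFB11, an X-linked subunit of the membrane arm, 0.88 and 0.33 (mean 0.60, 1.52-fold). In both, the array with the clone in Cy3 was under 1.5-fold. Just outside stood ATP5D at 0.81 and 0.35 (mean 0.58), which was called with normexp fitted on all spots, with the processed signals, under median centring, as the mean over its probes and on the Cy5 array alone, and NDUFV1, the core subunit that binds NADH, at 0.69 and 0.41 (mean 0.55). Dimmer second probes of ATP5D, at 1.40 and 0.39 (mean 0.90), and of NDUFS7, at 0.99 and 0.50 (mean 0.75), also met the call. The brightest probe of NDUFS7 had a mean of 0.32 and did not. Among the brightest probes the lowest was NDUFA8, an accessory subunit, at -0.79 and -0.26. Both arrays had the same direction for 43 of the 78 genes, with 23 higher and 20 lower. No share over all probes was taken for this count, and no agreement of the arrays is read from it. The medians were -0.04 for complex I, 0.15 for complex IV and -0.02 for ATP synthase, against -0.01 over all probes.

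**Figure D4:**
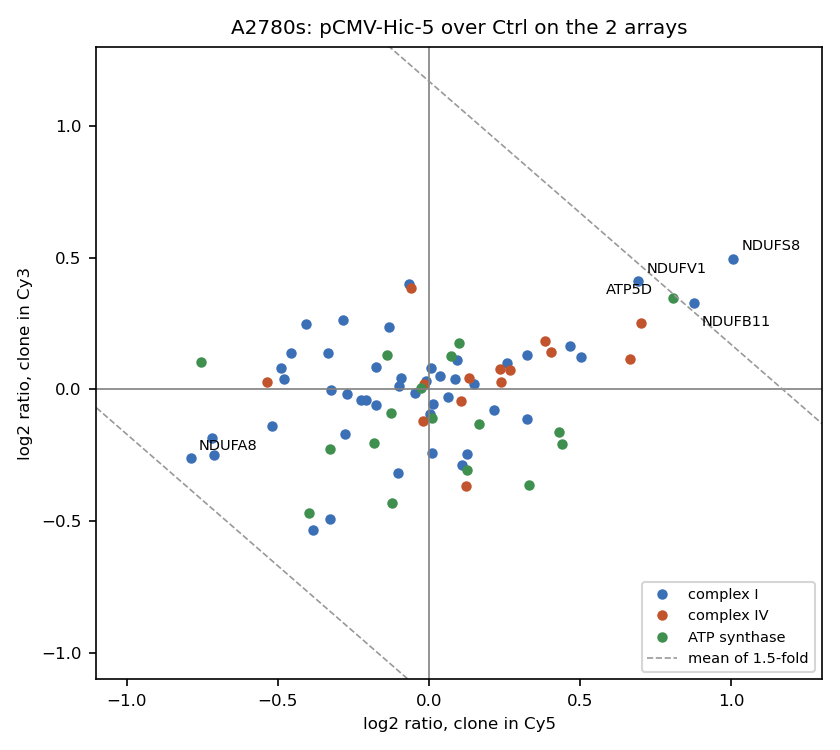
Log2 ratio of pCMV-Hic-5 over Ctrl for the genes described that passed the filter in A2780s, with the clone in Cy5 (x axis) against the clone in Cy3 (y axis), coloured by complex; dashed lines mark a mean of 1.5-fold. NDUFS8 and NDUFB11 lie past the upper line, ATP5D and NDUFV1 just inside it, and no gene lies past the lower one.

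In A2780s, genes that rose in SKOV3 had mean ratios of 0.39 (COX6A2), -0.20 (NDUFB8), -0.33 (NDUFA4), -0.06 (NDUFA5) and 0.07 (NDUFV3). NDUFS8 stood at -0.57 in SKOV3 and 0.75 in A2780s, and NDUFB11 at 0.55 (adjusted p = 0.0050 in limma) and 0.60. The difference between the lines was not tested. The levels of the same probe show where the RNAs stood. For NDUFB8 the SKOV3 Ctrl had a mean of 12.51 and the other 4 RNAs 13.75 to 14.27, and for NDUFV3 11.56 against 12.62 to 13.29. In NDUFA4 and NDUFA5 too the SKOV3 Ctrl was the lowest of the RNAs. NDUFS8 was highest in the SKOV3 Ctrl at 13.80 and lowest in the A2780s Ctrl at 12.47, with the modified clones at 13.21 to 13.25. For the genes called in a line, the order of its Ctrl and its modified clones follows from the call and adds nothing to it. The SKOV3 Ctrl stood below the A2780s Ctrl for most members, among them NDUFA7 and COX5B, and above it for fewer, such as NDUFA11 and COX7A1. None of these was called in SKOV3, but all passed the adjusted p there, at mean ratios of 0.90, 0.53, -0.57 and -0.85. Of members near 0 in SKOV3, NDUFS4 (0.02) was lower in the SKOV3 Ctrl, at 12.49 against 13.16 in the A2780s Ctrl. NDUFA10 (-0.01) was higher there, at 11.42 against 10.99. Levels between the lines were read on different slides and are given as a description.

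**Figure D5:**
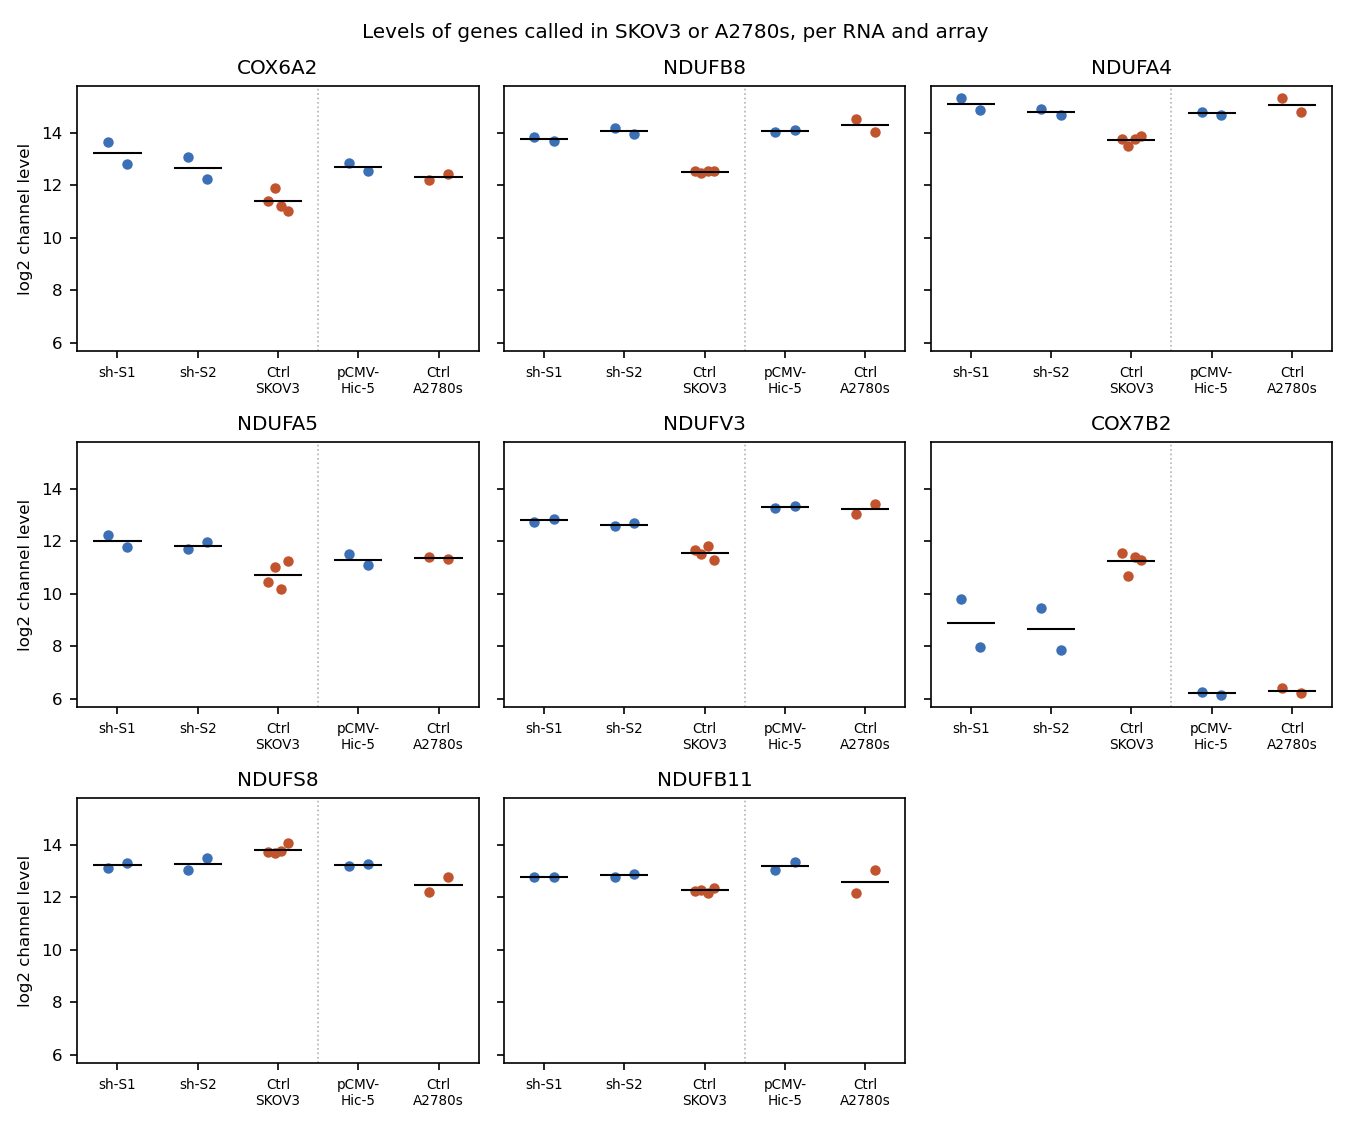
Log2 channel level (y axis) after normalization of genes called in either line, in each RNA (x axis), with 1 point per array, lines at the means, orange for Ctrl and blue for modified clones; the dotted line separates the slides. COX7B2 stands at 11.24 in the SKOV3 Ctrl, at 8.65 and 8.89 in the clones and near background in A2780s, while NDUFB8 is lowest in the SKOV3 Ctrl.

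Other genes of the pathway were counted with the same calls. None of 4 complex II genes was called in SKOV3, nor any of 11 tested regulators of mitochondrial biogenesis or of 4 tested genes of ATP export, where 2.97% of all probes were called higher and 4.16% lower, so lists of this size would hold few calls or none at the background share. The regulators with the highest means were TFB1M and TFB2M, which act in mitochondrial ribosomal RNA methylation and transcription, at 0.87 and 0.61, while NRF1 itself did not pass the filter and TFAM had 0.45. Of 11 genes of cytochrome c and the assembly of its oxidase, SCO1, a copper chaperone of complex IV, rose (mean 1.17). In complex III, 1 of 8 tested genes was called, UQCRH, the hinge subunit, with a mean log2 ratio of 5.38. The list medians were 0.20 for complex II, 0.38 for complex III, 0.32 for cytochrome c and oxidase assembly, 0.13 for ATP export and 0.28 for the regulators. In A2780s, where 3.26% of all probes were called higher and 1.32% lower, the assembly factor COX19 was called higher (0.77), the copper chaperone COX17 lower (-0.67), and the channel VDAC3 lower (-0.62).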

How the data were processed

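RNA was compared on 6 Agilent Whole Human Genome arrays, each read in 2 dyes. The authors deposited spot intensities of both dyes as Agilent Feature Extraction wrote them (version 8.5.1.1 per the labels, 10.7.3.1 per the file headers), with background but without normalization, and log10 ratios of Cy5 over Cy3 made from the software's processed intensities. The deposited series values were the same log10 ratios rounded to 3 digits and were not used further. The study gives thresholds on p and fold. Its background correction, normalization and test are not given in the sources used here.

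Mean intensities were background-corrected with normexp (offset 50) in limma 3.58.1 under R 4.3.3, its parameters fitted without spots flagged for background or with a local background over 1000. Ratios were normalized by loess within arrays, outlier-flagged spots (121 to 362 an array) were dropped, spots of a probe were averaged, and every log2 ratio was turned to modified clone over Ctrl. Levels per channel are log2 values after Aquantile between arrays. A probe was kept if the Ctrl was well above background on every array of the line, or a clone on its 2 arrays. In SKOV3, dye-swapped arrays were first averaged within a clone, and the 2 clone values were then tested against 0 with lmFit and eBayes, Benjamini-Hochberg adjusted over all 24955 probes. Each SE is the moderated SE of this fit, drawn towards the variance over all probes, and is not the spread of the 2 clones alone. Both clones shared 1 Ctrl RNA, whose own spread is left out, and nothing says that replicate RNAs came from separate cultures. The spread between dye-swapped arrays was averaged out before the test and does not enter it either. The p-values therefore measure only the spread between the 2 clone means, drawn towards that over all probes. In A2780s 2 arrays of 1 clone allow no test. Precision is limited by how few arrays there are.

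Named were the genes called, the 3 highest and 3 lowest of each complex in SKOV3, isoform pairs and probes that disagree. NDUFA13, NDUFA7 and NDUFA9, the core subunits not called, NDUFAF1, COX7C, COX6C, ATP5B, NDUFA8, NDUFV1 and the named genes outside the members were added after their values were seen. One result stays in the counts and medians and is not reported here. Members and lists were chosen with earlier results of these data known. Promoters came from RefSeq on GRCh38.p14, and probe positions on hg19 and probe sequences from the scanner files. Alternatives covered background correction, normalization, filter, dye orientation, probe choice, subunits only, each clone, a clone block and the thresholds.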

Additional observations from a re-analysis of the deposited data

Results flagged for a closer look

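NDUFS7, a core subunit of complex I, had log2 ratios below 0 on both arrays of sh-S1 (-0.06 and -0.11) and above 0 on both arrays of sh-S2 (0.03 and 0.16), so sh-S2 stood higher by 0.18. The ratios are small, and their mean of 0.00 did not pass the test (adjusted p = 0.98 in limma). The other probe of NDUFS7 did not split this way, with -0.08 and -0.38 in sh-S1 and 0.07 and -0.12 in sh-S2. The difference between the clones was not tested.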

How the results depend on the processing

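The direction of all 9 genes called in either line held under every alternative run, named in the report. Alternatives of dye orientation, clone, clone block, subunits, filter and thresholds could not reverse it. Each of these genes had the same sign on every array of its line. That leaves background correction and normalization, and probe choice where a gene has several probes, as alternatives that could have changed a direction. Members called higher in SKOV3 came to 4 under median centring, 4 over all probes of a gene, 9 in Cy5, 10 in Cy3 (each the dye of the clone) and 27 with no fold limit. In that order, 3.31% of all probes, 2.86% of all gene names, and 3.41%, 4.86% and 15.6% of all probes were called higher. Members called lower came to 3 with processed signals, 2 under median centring, 2 in Cy3 and 11 with no fold limit. Of all probes, 9.44%, 6.33%, 5.54% and 16.2% were called lower in these settings, against 4.16% in the main one. Leaving out a clone gave 6 to 8 higher and 1 to 2 lower, as folds with no test, beside 3.08% to 3.34% of all probes higher and 3.90% to 4.63% lower. For complex I the SKOV3 median was 0.021 under median centring, -0.027 in Cy5, 0.46 in Cy3 and 0.30 with subunits only, NDUFA4 included. With NDUFA4 moved to complex IV the median of complex I subunits was 0.25. For complex IV it was 0.12 with processed signals, -0.080 under median centring, 0.10 without the filter or with flagged spots kept, 0.26 in Cy5, -0.070 in Cy3, 0.027 over all probes of a gene, 0.12 with subunits only and 0.046 to 0.13 without a clone. For ATP synthase it was 0.068 under median centring, 0.23 in Cy3, 0.23 over all probes and 0.19 to 0.24 without a clone. In A2780s, 6 members were higher and 4 lower on the Cy5 array, 0 were higher on the Cy3 array, at 1.5-fold on each array and at 2-fold, 1 was lower with processed signals, and the ATP synthase median was -0.13 on the Cy3 array. Of all probes, 5.88% were higher and 4.97% lower on the Cy5 array, and 3.33% higher on the Cy3 array. At 1.5-fold on each array 1.62% were higher, at 2-fold 0.64%, and with processed signals 2.27% were lower. The cause of these differences was not tested. The sign of a ratio changed for 19 of 73 members on the Cy5 arrays and for 12 on the Cy3 arrays, with no share over all probes taken. The offset of 50 and the dim Cy5 signal limit folds of dim probes. No paired analysis was possible because the replicate numbers mark dye orientation and each array already pairs a clone with its Ctrl.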
